A study of Sinocyclocheilus angustiporus and Sinocyclocheilus anophthalmus with 4 samples.

Results

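Heat shock proteins, chaperonins and folding enzymes were followed in whole eyes of 2 species of Sinocyclocheilus, a genus of Chinese cyprinids. Members were the rows of the 2 eye tables whose name holds one of 10 phrases (heat shock, DnaJ, chaperonin, chaperone, calnexin, calreticulin, protein disulfide isomerase, FK506 binding protein, peptidylprolyl isomerase or prefoldin). Names with crystallin or assembly were left out, which removed 5 rows. The rule found 100 of 9649 rows: 58 of the cytosol (nucleus included), 20 of the endoplasmic reticulum (ER), 10 of mitochondria and 12 that were not assigned to a single one of these places. Compartments were given by hand from the names and from what is known of each protein.

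The compared eyes were those of adult cavefish, Sinocyclocheilus anophthalmus, and of adult surface fish, Sinocyclocheilus angustiporus, with 1 library each. The labels give 2 individuals per species, and whether they were pooled is not stated; 2 brain libraries of the series were not analysed here. Values are RPKM, read numbers scaled to transcript length and to the size of the library, as the authors deposited them. With 1 library per eye no difference has a replicate check, and species, habitat, animal and sequencing run cannot be told apart. The depth is unknown, so no counting error is given.

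Chaperones bind proteins that are not yet folded, or have lost their fold, and release them in cycles driven by ATP. In the cytosol, DnaJ proteins hand clients to HSP70, and HSP90 takes over part of them; the ring-shaped chaperonin CCT, fed by prefoldin, folds actin and tubulin. The ER has its own HSP70 and HSP90, lectin chaperones for glycoproteins and enzymes that form disulfide bonds, and mitochondria have theirs. In the vertebrate eye these systems serve photoreceptors, which make large amounts of membrane pigment, and lens fibres, whose proteins must last for life.

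Differences are given as log2((cavefish RPKM + 1) / (surface fish RPKM + 1)), called the log2 ratio, and a gene was called higher or lower when the ratio reached 2-fold. Of the 100 members, 11 were called higher in the cavefish eye, against 3.83% of all rows, and 7 were called lower, against 10.1% of all rows. The other 82 lay within 2-fold. The median log2 ratio was 0.11 over the members and -0.27 over all rows, 72 members lay above the median of all rows, as 50% of all rows do, and 56 lay above 0, against 31.2% of all rows. The median of all rows depends on the scale and came to between -0.02 and 0.00 under 4 other scalings. Under each of them 17 members were higher and 4 lower, and 17 members that lay below 0 on the deposited scale lay above it under at least one of them. The shares of all rows were 6.71% higher and 5.55% lower with median centring, 6.62% and 5.6% with trimmed mean scaling, 6.28% and 5.8% with equal totals without the most abundant rows, and 6.2% and 5.79% with quantile normalization.

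A row entered the tables only if its larger value was 5 RPKM or more, and this bears on the higher members. Of the 11 higher members, 8 had a surface fish value under 5 RPKM, so they passed this limit by their cavefish value alone. Of the 7 lower members, 2 had a cavefish value under 5 RPKM. Among the 82 members of 5 RPKM or more in both eyes, 3 were higher (3.66%, against 2.32% of the 7719 rows of this kind) and 5 lower (6.10%, against 8.77%). Their median log2 ratio was 0.04, against -0.24 over those 7719 rows.

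**Figure D1:**
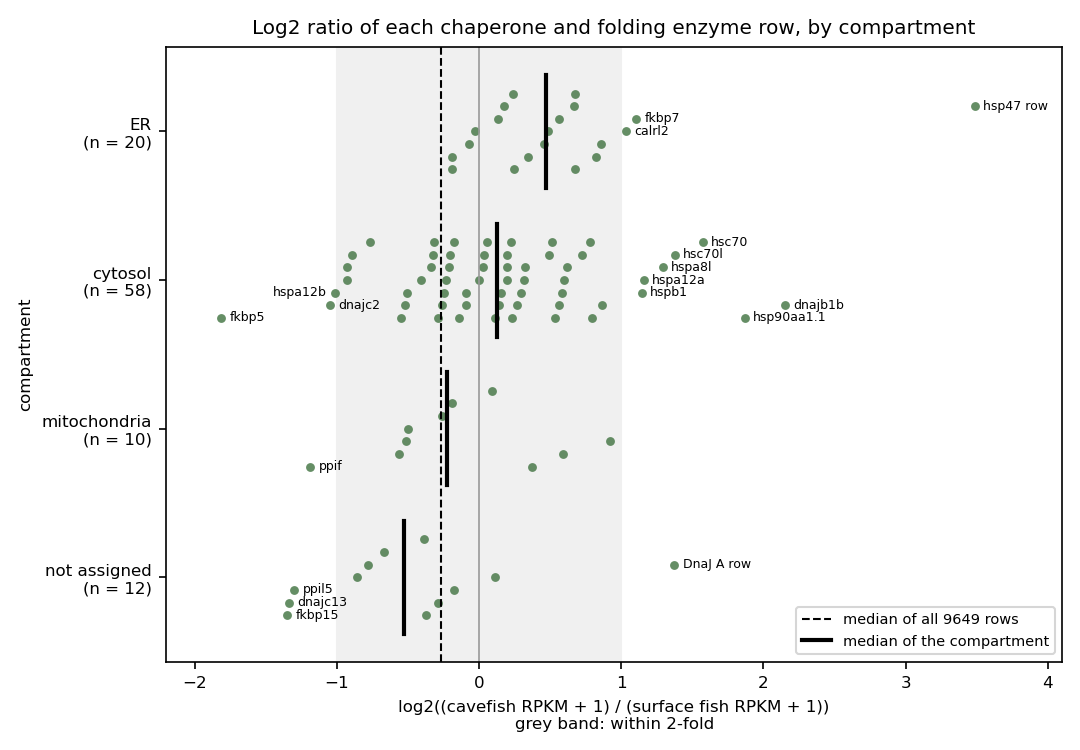
Log2 ratio of each of the 100 rows by compartment; points are rows, short black lines the compartment medians (ER 0.47, cytosol 0.12, mitochondria -0.23, not assigned -0.53), the dashed line the median of all rows (-0.27) and the grey band the range within 2-fold. All 20 rows placed in the ER by hand lie to the right of the dashed line, while the rows of the other groups lie on both sides of it.

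Lens and photoreceptor markers were present in both libraries, as the eye label says, but the eyes differed in their levels, and these values stand beside all that follows. Photoreceptor markers, 20 rows matched to 26 listed symbols, summed to 8263 RPKM in the cavefish eye and 24790.4 RPKM in the surface fish eye, and 19 of them were lower. Lens rows, 46 with all crystallins and the crystallin-related heat shock rows b6, b7 and b8, summed to 16271 RPKM in the cavefish eye and 12336 RPKM in the surface fish eye, with 23 higher and none lower. Skeletal muscle markers, 29 rows matched to 43 listed symbols, summed to 3309 RPKM in the cavefish eye and 1356 RPKM in the surface fish eye, with 13 higher and none lower. Cornea and skin epithelium markers (13 rows) summed to 348 RPKM in the cavefish eye and 1427 RPKM in the surface fish eye, and erythrocyte markers (5 rows) to 504 RPKM in the cavefish eye and 1686 RPKM in the surface fish eye. Their part in the chaperone values was not tested, and more cells of a type and more RNA per cell cannot be told apart in whole eyes.

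The regulators of the heat shock response lay within 2-fold and on both sides of 0. Heat shock transcription factor 1 (hsf1), the main activator of heat shock genes, stood at 6.28 RPKM in the cavefish eye and 7.91 RPKM in the surface fish eye (log2 ratio -0.29). Heat shock factor 2 (hsf2), which acts in development and stress, stood at 22.0 RPKM in the cavefish eye and 12.4 RPKM in the surface fish eye (0.78). Heat shock transcription factor 4 (hsf4), known in mammals for its role in lens development, stood at 6.83 RPKM in the cavefish eye and 3.52 RPKM in the surface fish eye (0.79). The factor 1 row was thus below 0, though close to the median of all rows (-0.27), and the other factor rows were above 0. Under the 4 other scalings hsf1 was at -0.10 to -0.02. The hsf4 row passed the limit of 5 RPKM by its cavefish value alone. Under the 4 other scalings hsf2 passed 2-fold each time (1.04 to 1.06), and hsf4 did with all but quantile normalization (0.97 to 1.06). Heat shock factor binding protein 1 (hsbp1), which binds heat shock factor 1 and restrains it, was at 8.32 RPKM in the cavefish eye and 16.8 RPKM in the surface fish eye (-0.93).

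The HSP90 rows of the cytosol held the most abundant member of all. The row of HSP90 alpha class B member 1 (hsp90ab1), the constitutive HSP90, stood at 1659 RPKM in the cavefish eye, the 8th highest value of that library, and at 1109.7 RPKM in the surface fish eye, the 19th highest (log2 ratio 0.58, and past 2-fold at 1.097 with quantile normalization alone). HSP90-alpha 1 (hsp90aa1.1), which in zebrafish skeletal muscle helps to fold myosin, was at 76.8 RPKM in the cavefish eye and 20.3 RPKM in the surface fish eye (1.87). HSP90-alpha 2 (hsp90aa1.2), the related second alpha gene, was at 131 RPKM in the cavefish eye and 151 RPKM in the surface fish eye (-0.20, but 0.06 to 0.10 under the 4 other scalings). The alpha genes thus differed from each other in ratio: hsp90aa1.1 made up 36.9% of the alpha sum in the cavefish eye and 11.9% in the surface fish eye. Summed, the alpha rows came to 208 RPKM in the cavefish eye and 171 RPKM in the surface fish eye (0.28). The sum was thus within 2-fold, with hsp90aa1.2 as the larger row in both eyes. The sources used here do not say how reads were divided between such related rows, so the values of single rows with close relatives are uncertain. The muscle partner smyd1a, a methyltransferase that works with this HSP90 on myosin in zebrafish, was within 2-fold. It was at 13.8 RPKM in the cavefish eye and 11.8 RPKM in the surface fish eye (0.21, and 0.46 to 0.48 under the other scalings). The muscle marker rows had a median log2 ratio of 0.97 and ran between -0.38 and 2.43. The part of muscle in the hsp90aa1.1 value was not tested.

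Among the HSP70 rows of the cytosol, an abundant row was within 2-fold and less abundant relatives of it were higher. Heat shock protein 8 (hspa8), the constitutive HSC70, stood at 168 RPKM in the cavefish eye and 147 RPKM in the surface fish eye (0.20, and 0.46 to 0.47 under the 4 other scalings). The row heat shock protein 8-like was at 18.2 RPKM in the cavefish eye and 6.83 RPKM in the surface fish eye (1.29). A row named heat shock cognate 70-kd protein was at 10.2 RPKM in the cavefish eye and 2.77 RPKM in the surface fish eye (1.57), and the row named as its like at 8.10 RPKM in the cavefish eye and 2.51 RPKM in the surface fish eye (1.37). These 3 less abundant rows were each past 2-fold, whereas the sum of the 4 rows was 205 RPKM in the cavefish eye and 159 RPKM in the surface fish eye (0.36). That sum consists mostly of hspa8, so it says little about the less abundant rows. The heat shock cognate 70-kd row and its like passed the limit of 5 RPKM by their cavefish value alone. Whether the 3 less abundant rows are inducible or constitutive HSP70s was not examined.

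More distant HSP70 relatives went both ways. The row heat shock 70kDa protein 12A (hspa12a) was at 7.59 RPKM in the cavefish eye and 2.85 RPKM in the surface fish eye (1.16). Its relative heat shock protein 12B (hspa12b), known from endothelial cells in mammals and zebrafish, was at 2.06 RPKM in the cavefish eye and 5.18 RPKM in the surface fish eye (-1.01). These rows are thus past 2-fold in opposite directions, each with 1 value under 5 RPKM, and hspa12b lay within 2-fold under the 4 other scalings (-0.89 to -0.74). The HSP110 rows, nucleotide exchange factors of HSP70, were within 2-fold. Of these, hspa4a was at 12.97 RPKM in the cavefish eye and 8.46 RPKM in the surface fish eye (0.56), hspa4l at 8.97 RPKM in the cavefish eye and 7.12 RPKM in the surface fish eye (0.30), and hspa4b at 9.43 RPKM in the cavefish eye and 10.8 RPKM in the surface fish eye (-0.18, but 0.04 to 0.09 under the other scalings).

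Small heat shock proteins hold unfolding proteins until HSP70 can act on them. Heat shock protein beta-1 (hspb1), the only small heat shock row that the name rule keeps, was at 9.46 RPKM in the cavefish eye and 3.73 RPKM in the surface fish eye (1.14). Of the 3 relatives that the word crystallin excludes, b6 was at 28.5 RPKM in the cavefish eye and 10.9 RPKM in the surface fish eye (1.32), b8 at 5.98 RPKM in the cavefish eye and 2.04 RPKM in the surface fish eye, and b7 at 3.92 RPKM in the cavefish eye and 7.33 RPKM in the surface fish eye (-0.76). Of these 4 small heat shock rows, 3 were past 2-fold on the high side, against 3.83% of all rows, and b7 was on the low side within 2-fold. Of the higher rows only b6 had 5 RPKM or more in both eyes. The rows hspb1 and b8 passed the limit of 5 RPKM by their cavefish value alone, and b7 by its surface fish value alone.

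Among cofactors, the HSP90 ATPase activator row ahsa1l was at 14.3 RPKM in the cavefish eye and 12.1 RPKM in the surface fish eye (0.23). The HSP70 nucleotide exchange factor hspbp1 was at 7.49 RPKM in the cavefish eye and 4.54 RPKM in the surface fish eye (0.62). A further list of 42 co-chaperone symbols gave 30 rows outside the name rule, with a median log2 ratio of -0.23, close to that of all rows. Of them 1 was higher (3.33%, against 3.83% of all rows) and 2 were lower (6.67%, against 10.1%). The higher one was prostaglandin E synthase 3a (ptges3a), a p23 type partner of HSP90, at 12.9 RPKM in the cavefish eye and 5.01 RPKM in the surface fish eye (1.21). Its relative ptges3 was within 2-fold, at 10.95 RPKM in the cavefish eye and 12.15 RPKM in the surface fish eye (-0.14, but 0.11 to 0.13 under the other scalings). Lower was aipl1, the chaperone that photoreceptors need for their phosphodiesterase, at 17.3 RPKM in the cavefish eye and 53.3 RPKM in the surface fish eye (-1.57); the median of the photoreceptor marker rows was -1.55. The other lower row was nudcd2, at 5.20 RPKM in the cavefish eye and 11.5 RPKM in the surface fish eye (-1.01), which lay within 2-fold under the 4 other scalings (-0.81 to -0.74). The HSP70 to HSP90 adaptor stip1 stood at 33.8 RPKM in the cavefish eye and 40.7 RPKM in the surface fish eye (-0.26), and the most abundant co-chaperones of the list, st13 (50.04 RPKM in the cavefish eye and 46.2 RPKM in the surface fish eye) and cdc37 (44.2 RPKM in the cavefish eye and 52.5 RPKM in the surface fish eye), were also within 2-fold. Bag3, which couples HSP70 to autophagy and is induced by heat shock factor 1 in mammals, was at 5.14 RPKM in the cavefish eye and 2.80 RPKM in the surface fish eye (0.69). The other BAG rows of the list lay below 0 on the deposited scale: bag1 (-0.49), bag4 (-0.59), bag6 (-0.27) and bag6l (-0.70). The rows bag3 and hspbp1 passed the limit of 5 RPKM by their cavefish value alone.

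**Figure D2:**
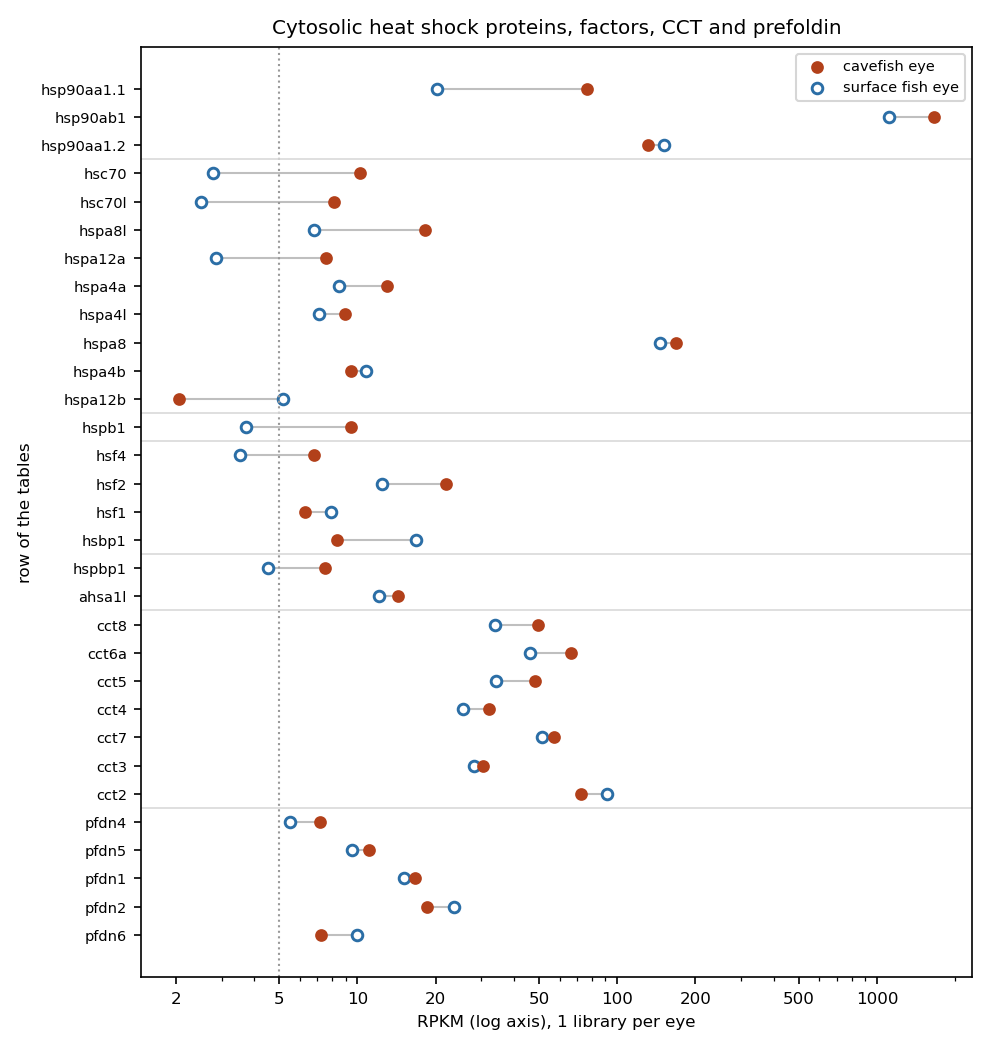
RPKM on a log axis of the cytosolic HSP90, HSP70, small heat shock, heat shock factor, cofactor, CCT and prefoldin rows, in blocks sorted by log2 ratio; filled points are the cavefish eye, open points the surface fish eye, with 1 library each, and the dotted line marks 5 RPKM. The largest gaps belong to hsp90aa1.1 and the less abundant HSP70 rows, whereas hspa8, CCT and prefoldin points lie close together.

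CCT rows lay within 2-fold, as most of all rows did. The 7 subunit rows of the rule (cct2 to cct8) had log2 ratios between -0.33 and 0.53 with a median of 0.32. None was higher, against 3.83% of all rows, and none lower, against 10.1%. The most abundant in the cavefish eye after cct2 was cct6a, at 66.4 RPKM there and 46.3 RPKM in the surface fish eye (0.51). The subunits ranged between 30.4 and 72.8 RPKM in the cavefish eye and between 25.6 and 91.4 RPKM in the surface fish eye. Above 0 were 6 of the 7 ratios, against 31.2% of all rows. Only that of cct2 was below it, at 72.8 RPKM in the cavefish eye and 91.4 RPKM in the surface fish eye (-0.33); cct8 had the largest ratio, with 49.3 RPKM in the cavefish eye and 33.8 RPKM in the surface fish eye (0.53). The first subunit, named t-complex polypeptide 1 and so outside the rule, was at 41.1 RPKM in the cavefish eye and 38.9 RPKM in the surface fish eye (0.07). Second rows of the beta and delta subunits, also outside the rule, lay below 0 on the deposited scale. That of beta was at 11.15 RPKM in the cavefish eye and 13.78 RPKM in the surface fish eye (-0.28). That of delta was at 11.98 RPKM in the cavefish eye and 12.41 RPKM in the surface fish eye (-0.05, but 0.21 to 0.22 under the other scalings). Since the subunits form 1 ring, they are no independent measurements of it.

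Prefoldin, which passes actin and tubulin chains to CCT, was less abundant. Its 5 measured subunit rows lay between 7.16 and 18.5 RPKM in the cavefish eye and between 5.51 and 23.6 RPKM in the surface fish eye. Log2 ratios ran between -0.41 for pfdn6 (7.27 RPKM in the cavefish eye and 9.96 RPKM in the surface fish eye) and 0.33 for pfdn4 (7.16 RPKM in the cavefish eye and 5.51 RPKM in the surface fish eye). The most abundant were pfdn2, at 18.5 RPKM in the cavefish eye and 23.6 RPKM in the surface fish eye (-0.34), and pfdn1, at 16.7 RPKM in the cavefish eye and 15.1 RPKM in the surface fish eye (0.14). The median was 0.14. None of the 5 rows was higher, against 3.83% of all rows, and none lower, against 10.1%. Prefoldin rows thus lay on both sides of 0 while most CCT rows lay above it.

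Prolyl isomerases speed a slow step of folding, the turn of the bond before proline; FK506 binding proteins (FKBP) and cyclophilins are the families named for the immunosuppressants they bind. The row with the lowest log2 ratio of all 100 members was FK506 binding protein 5 (fkbp5), an HSP90 partner in steroid receptor complexes and, in mammals, a gene induced by glucocorticoids. It stood at 14.2 RPKM in the cavefish eye and 52.5 RPKM in the surface fish eye (-1.82), and stayed past 2-fold under each of the 4 other scalings (-1.55 to -1.53). Its close relative and fellow HSP90 partner fkbp4 was within 2-fold, at 44.6 RPKM in the cavefish eye and 38.8 RPKM in the surface fish eye (0.20). So the pair of steroid receptor FKBPs differed in direction.

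FK506 binding protein 15 (fkbp15), linked to actin and early endosomes in mammals, was lower as well, at 25.7 RPKM in the cavefish eye and 66.9 RPKM in the surface fish eye (-1.35). The small cytosolic FKBPs were within 2-fold: fkbp1aa was at 65.3 RPKM in the cavefish eye and 77.1 RPKM in the surface fish eye (-0.24, but 0.03 to 0.07 under the other scalings). Its copy fkbp1ab was at 55.95 RPKM in the cavefish eye and 30.2 RPKM in the surface fish eye (0.87), past 2-fold under the 4 other scalings (1.13 to 1.19). The calcium channel partner fkbp1b, which in vertebrates binds ryanodine receptors of muscle, was at 65.5 RPKM in the cavefish eye and 42.9 RPKM in the surface fish eye (0.60). Over the 11 FKBP rows of all compartments the median log2 ratio was 0.13. Of them 1 was higher (9.09%, against 3.83% of all rows) and 2 lower (18.2%, against 10.1%).

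The abundant cyclophilins differed little. Cyclophilin A (ppia), an abundant cytosolic isomerase, stood at 195 RPKM in the cavefish eye and 191.5 RPKM in the surface fish eye (0.03), and the row named as its like at 164 RPKM in the cavefish eye and 140.1 RPKM in the surface fish eye (0.23). Of the 8 cyclophilin rows of cytosol and nucleus none was higher, against 3.83% of all rows, and none lower, against 10.1%. The lowest was ppie, a spliceosome isomerase, at 12.1 RPKM in the cavefish eye and 21.2 RPKM in the surface fish eye (-0.76), and ppwd1, another nuclear isomerase, was at 11.5 RPKM in the cavefish eye and 14.02 RPKM in the surface fish eye (-0.26). Among rows that were not assigned, the row named peptidylprolyl isomerase-like 5 was lower, at 9.40 RPKM in the cavefish eye and 24.6 RPKM in the surface fish eye (-1.30). It is a member by its name alone, and whether its product is an isomerase was not examined. In the list of other prolyl isomerases, 6 rows outside the name rule had a median of -0.47. None was past 2-fold, against 3.83% of all rows higher and 10.1% lower. Of these, nktr was at 114 RPKM in the cavefish eye and 196 RPKM in the surface fish eye (-0.77).

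DnaJ proteins, or HSP40s, bring substrates to HSP70 and start its ATP cycle, and their many forms place HSP70 at different tasks. The 32 DnaJ rows had a median log2 ratio of -0.27, equal to that of all rows to 2 decimals. Of them 2 were higher (6.25%, against 3.83% of all rows) and 2 lower (6.25%, against 10.1%). On the deposited scale 10 were above 0, against 31.2% of all rows. The other 22 were below 0, of which 15 stayed below it under all 4 other scalings. The DnaJ row with the highest ratio was dnajb1b, a stress-inducible type known with its copy as a target of heat shock factor 1. It stood at 11.3 RPKM in the cavefish eye and 1.77 RPKM in the surface fish eye (2.15), and so passed the limit of 5 RPKM by its cavefish value alone. The copy dnajb1a was at 9.40 RPKM in the cavefish eye and 5.31 RPKM in the surface fish eye (0.72). Summed, the pair came to 20.7 RPKM in the cavefish eye and 7.08 RPKM in the surface fish eye (1.43), so here the sum stays past 2-fold. A row with a cut name, a predicted zebrafish DnaJ of subfamily A, was at 14.2 RPKM in the cavefish eye and 4.85 RPKM in the surface fish eye (1.37). This row, too, passed the limit by its cavefish value alone. The cytosolic DnaJ dnaja2 was at 10.5 RPKM in the cavefish eye and 20.3 RPKM in the surface fish eye (-0.89). The most abundant cytosolic DnaJ row, dnajc7, which binds both HSP70 and HSP90, was at 18.7 RPKM in the cavefish eye and 27.3 RPKM in the surface fish eye (-0.52). The cytosolic DnaJ rows thus held both the highest and nearly the lowest DnaJ ratios, with dnajb4 at 7.23 RPKM in the cavefish eye and 7.22 RPKM in the surface fish eye between them.

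The largest DnaJ level was that of dnajc13, a protein of endosomes that works with HSC70 in membrane sorting. It stood at 129 RPKM in the cavefish eye and 329 RPKM in the surface fish eye (-1.34), and stayed past 2-fold under the 4 other scalings (-1.14 to -1.07). In the surface fish eye this row was the second most abundant of all 100 members after hsp90ab1, and in the cavefish eye it was the 6th. Other DnaJ rows of vesicle traffic were within 2-fold: auxilin (dnajc6), which strips clathrin from vesicles, was at 17.7 RPKM in the cavefish eye and 23.1 RPKM in the surface fish eye (-0.37). The cysteine string protein rows of synaptic vesicles were at -0.67 for dnajc5ga, -0.29 for dnajc5ab and 0.11 for dnajc5aa. Of these 5 rows 1 was thus above 0, against 31.2% of all rows, and 4 were below it, although dnajc5ab came to 0.01 under one of the other scalings. Their median was -0.37, against -0.27 over all rows. The ribosome partner dnajc2 was also lower, at 4.84 RPKM in the cavefish eye and 11.1 RPKM in the surface fish eye (-1.05), but lay within 2-fold under the 4 other scalings (-0.85 to -0.78).

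**Figure D3:**
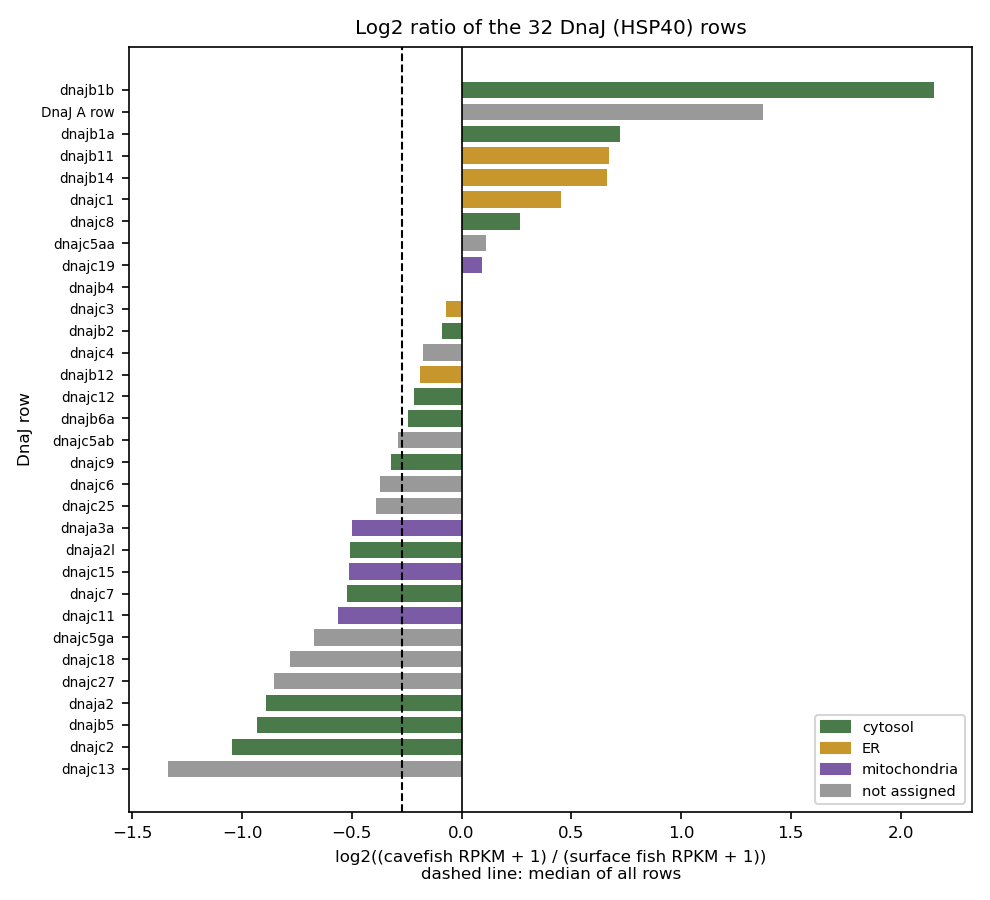
Log2 ratio of the 32 DnaJ rows as bars that start at 0, coloured by compartment, with the dashed line at the median of all rows (-0.27). The bar of dnajb1b (2.15) is the longest to the right and that of dnajc13 (-1.34) the longest to the left; 3 of the 5 ER rows lie above 0 and 3 of the 4 mitochondrial rows below the dashed line.

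The 20 rows placed in the ER by hand all stood above the median of all rows. Of the 12 rows not assigned to a compartment, 3 did. One of these 12, the DnaJ row dnajc18, was at 15.51 RPKM in the cavefish eye and 27.35 RPKM in the surface fish eye (-0.78). Such rows are not counted here, so the ER result depends on the assignment. All 20 had a log2 ratio above -0.27, and the median was 0.47. Above 0 were 16, against 31.2% of all rows (20 of them under each of the 4 other scalings). Of them 3 were at least 2-fold higher (15%, against 3.83% of all rows), and none was lower, against 10.1% of all rows. Of the higher rows, fkbp7 and calreticulin, like 2 passed the limit of 5 RPKM by their cavefish value alone. Leaving out the 4 rows with a surface fish value under 5 RPKM, all 16 others were above the median of all rows and their median was 0.30. Of these 16 rows, 1 was higher (6.25%, against 2.32% of all rows of this kind), and none was lower, against 8.77%. Summed, the 20 rows came to 368 RPKM in the cavefish eye and 243 RPKM in the surface fish eye. With the 2 HSP47 rows taken off those sums, which hold 85.97 RPKM in the cavefish eye and 12.6 RPKM in the surface fish eye, most of the difference is gone: 282 RPKM in the cavefish eye and 230.4 RPKM in the surface fish eye.

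The ER HSP70 and HSP90 were within 2-fold on the deposited scale. Heat shock protein 5 (hspa5), the BiP protein that binds nascent chains and is a common marker of the unfolded protein response, stood at 33.4 RPKM in the cavefish eye and 18.5 RPKM in the surface fish eye (0.82). It passed 2-fold under each of the 4 other scalings (1.08 to 1.13). The ER HSP90 (hsp90b1, grp94) was at 17.1 RPKM in the cavefish eye and 11.9 RPKM in the surface fish eye (0.48). DnaJ partners of BiP lay on both sides of 0 on the deposited scale and above it under the others: dnajb11 was at 6.71 RPKM in the cavefish eye and 3.84 RPKM in the surface fish eye (0.67), and dnajc3 at 5.48 RPKM in the cavefish eye and 5.80 RPKM in the surface fish eye (-0.07). Of the membrane DnaJ rows, dnajc1 was at 17.5 RPKM in the cavefish eye and 12.5 RPKM in the surface fish eye (0.45), dnajb14 at 8.89 RPKM in the cavefish eye and 5.24 RPKM in the surface fish eye (0.66), and dnajb12 at 11.8 RPKM in the cavefish eye and 13.6 RPKM in the surface fish eye (-0.19). No DnaJ row of the ER was past 2-fold, against 3.83% of all rows higher and 10.1% lower.

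Of the lectin chaperones, which hold glycoproteins until they are folded, 1 of 3 rows was past 2-fold. Calreticulin (calr) stood at 11.4 RPKM in the cavefish eye and 6.75 RPKM in the surface fish eye (0.68), within 2-fold under every scaling tried. Calreticulin, like 2 was at 11.2 RPKM in the cavefish eye and 4.96 RPKM in the surface fish eye (1.03), just past 2-fold, and the sum of the calreticulin rows was within it (0.89). Calnexin (canx), the membrane-bound relative and the most abundant of these, was at 52.5 RPKM in the cavefish eye and 59.98 RPKM in the surface fish eye (-0.19, but 0.08 to 0.14 under the other scalings). The 3 protein disulfide isomerase rows, which form and shuffle disulfide bonds, lay close together between 0.18 and 0.25; pdia4 was the most abundant, at 20.7 RPKM in the cavefish eye and 17.4 RPKM in the surface fish eye.

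HSP47 is the ER chaperone of collagen chains, and it had the largest log2 ratio of all members. The row named heat shock protein 47 was at 72.4 RPKM in the cavefish eye and 5.55 RPKM in the surface fish eye (3.49), and above 2-fold under each of the 4 other scalings (3.73 to 3.76). A second row, the serpin clade H member 1 (serpinh1) that carries HSP47 in its name, was at 13.6 RPKM in the cavefish eye and 7.03 RPKM in the surface fish eye (0.86), and past 2-fold under the 4 other scalings (1.09 to 1.13). Both rows lay above 0, by very different amounts, and whether they are 1 gene or paralogs cannot be told from the names; summed, they gave 2.68. Beside them, the 28 rows named as chains of a collagen type, a list set after the HSP47 values had been seen, summed to 996 RPKM in the cavefish eye and 968 RPKM in the surface fish eye. Their median log2 ratio was 0.20, with 4 higher (14.3%, against 3.83% of all rows) and 3 lower (10.7%, against 10.1%). Of these 28 rows, 21 lay above the median of all rows.

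Of the ER isomerases, fkbp7 was higher, at 6.92 RPKM in the cavefish eye and 2.68 RPKM in the surface fish eye (1.11), and cyclophilin C (ppic) was at 5.86 RPKM in the cavefish eye and 3.65 RPKM in the surface fish eye (0.56). The most abundant of them, fkbp2, was at 32.2 RPKM in the cavefish eye and 29.4 RPKM in the surface fish eye (0.13). The chaperone of a single glycosyltransferase, c1galt1c1, stood at 5.23 RPKM in the cavefish eye and 5.37 RPKM in the surface fish eye (-0.03).

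**Figure D4:**
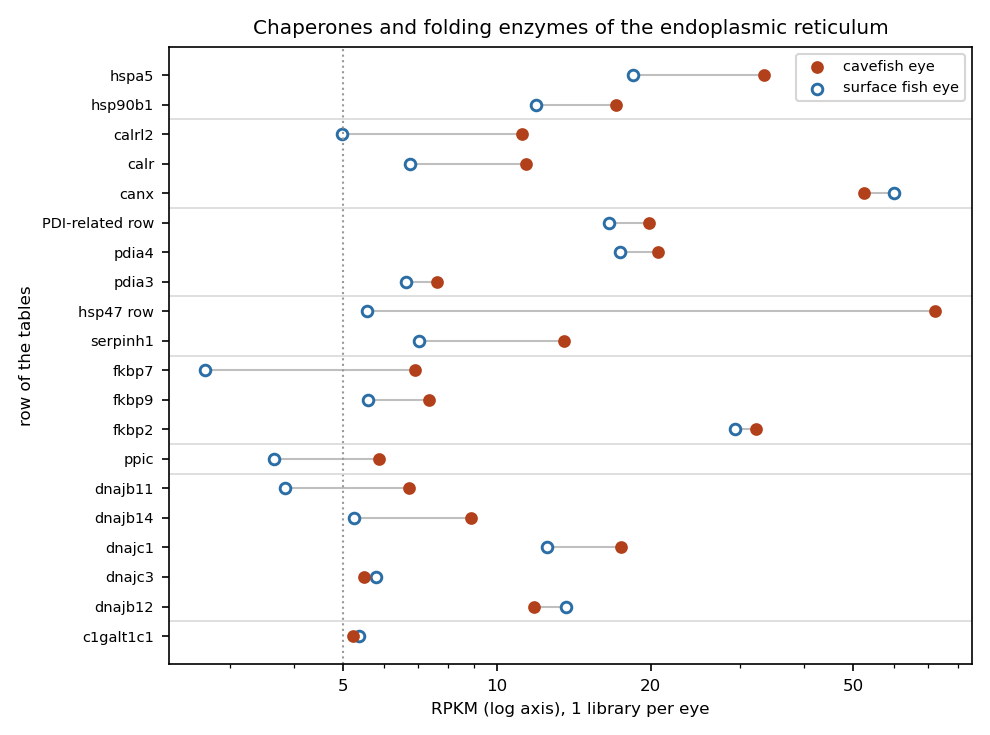
RPKM on a log axis of the 20 ER rows, in blocks by family; filled points are the cavefish eye, open points the surface fish eye, with 1 library each, and the dotted line marks 5 RPKM. The cavefish point lies to the right in 16 rows, furthest for the heat shock protein 47 row (72.4 RPKM in the cavefish eye and 5.55 RPKM in the surface fish eye), while calnexin, dnajb12, dnajc3 and c1galt1c1 have it slightly to the left.

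Other genes of ER folding, degradation and the unfolded protein response had a lower median than the ER members. A list of 65 symbols gave 36 rows outside the name rule, with a median log2 ratio of -0.20, against -0.27 over all rows. Of these 36 rows, 20 lay above the median of all rows. None was higher and 2 were lower, against 3.83% and 10.1% of all rows. The sensor kinase eif2ak3 (PERK) stood at 8.81 RPKM in the cavefish eye and 9.14 RPKM in the surface fish eye (-0.05), and the transcription factor xbp1 at 21.7 RPKM in the cavefish eye and 19.03 RPKM in the surface fish eye (0.18). The stress factor ddit3 (CHOP) was at 11.3 RPKM in the cavefish eye and 12.8 RPKM in the surface fish eye (-0.16). These sensors and factors were picked after their values were seen and lay within 2-fold, as did 34 of the 36 rows of the list. Under the 4 other scalings xbp1 was at 0.44 to 0.49. On the low side within 2-fold was chac1, which lies downstream of atf4, at 48.8 RPKM in the cavefish eye and 96.4 RPKM in the surface fish eye (-0.97). The atf4 rows themselves were at 67.6 RPKM in the cavefish eye and 112 RPKM in the surface fish eye (-0.72), and, for atf4b2, at 56.7 RPKM in the cavefish eye and 44.7 RPKM in the surface fish eye (0.33). Lower by 2-fold were the oxidoreductase tmx3, at 4.23 RPKM in the cavefish eye and 15.6 RPKM in the surface fish eye (-1.67), and sdf2, at 3.62 RPKM in the cavefish eye and 8.95 RPKM in the surface fish eye (-1.11); sdf2 lay within 2-fold under the 4 other scalings (-0.88 to -0.84). The ER oxidoreductase p4hb, a classical disulfide isomerase that the row name lists as a proline hydroxylase subunit, stood at 22.4 RPKM in the cavefish eye and 22.1 RPKM in the surface fish eye (0.02).

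Mitochondrial members were split by kind. The 3 rows of the matrix chaperones HSP60 and HSP70 were all above 0, against 31.2% of all rows. Of these, hspa9, the mitochondrial HSP70 that pulls proteins through the inner membrane, was at 41.4 RPKM in the cavefish eye and 31.8 RPKM in the surface fish eye (0.37). The chaperonin hspd1 was at 13.2 RPKM in the cavefish eye and 8.45 RPKM in the surface fish eye (0.59), and the row 60 kda heat shock mitochondrial at 12.6 RPKM in the cavefish eye and 6.18 RPKM in the surface fish eye (0.92). This last row passed 2-fold under each of the 4 other scalings (1.15 to 1.19). None of these 3 rows was past 2-fold on the deposited scale. The hspd1 row and the 60 kda row are both HSP60. Summed, they came to 25.8 RPKM in the cavefish eye and 14.6 RPKM in the surface fish eye (0.78). How reads were divided between them is not stated, so their single values are uncertain.

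The helpers in mitochondria went the other way or lay near 0. Cyclophilin F (ppif), a regulator of the permeability transition pore, was lower, at 6.76 RPKM in the cavefish eye and 16.7 RPKM in the surface fish eye (-1.19), though within 2-fold under the 4 other scalings (-0.96 to -0.92). Of the 4 mitochondrial DnaJ rows, dnajc11, dnajc15 and dnaja3a lay between -0.56 and -0.50, and dnajc19, which drives hspa9 at the import channel in the membrane, was at 0.09. The rows fkbp8, an isomerase of the outer membrane (-0.19), and uqcc, a chaperone for respiratory complex III (-0.26), were near the median of all rows. Over the 10 mitochondrial rows the median was -0.23, with 1 lower (10%, against 10.1% of all rows) and none higher (against 3.83%).

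A list of 21 symbols for mitochondrial folding and proteases gave 14 rows outside the rule. All 14 were below 0 on the deposited scale, on which 31.2% of all rows lay above it. Of the 14, clpb alone turned above 0 under the other scalings. Below the median of all rows were 13, and the median log2 ratio was -0.61. None was higher, against 3.83% of all rows, and 2 were lower (14.3%, against 10.1%). The matrix protease lonp1 was at 7.56 RPKM in the cavefish eye and 20.6 RPKM in the surface fish eye (-1.33), and the processing peptidase subunit pmpca at 2.39 RPKM in the cavefish eye and 5.89 RPKM in the surface fish eye (-1.02). Under the 4 other scalings lonp1 stayed past 2-fold (-1.09 to -1.06) and pmpca did not (-0.89 to -0.75). The nucleotide exchange factor grpel1, which serves hspa9, was at 13.4 RPKM in the cavefish eye and 19.4 RPKM in the surface fish eye (-0.50). So the HSP60 and HSP70 rows lay above 0, as 31.2% of all rows did, and the listed proteases and exchange factors below it. Under the other scalings clpb was the exception. The most abundant of the list, the prohibitins of the inner membrane, were at 33.0 RPKM in the cavefish eye and 48.2 RPKM in the surface fish eye for phb2 (-0.53) and at 24.9 RPKM in the cavefish eye and 49.5 RPKM in the surface fish eye for phb (-0.96).

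**Figure D5:**
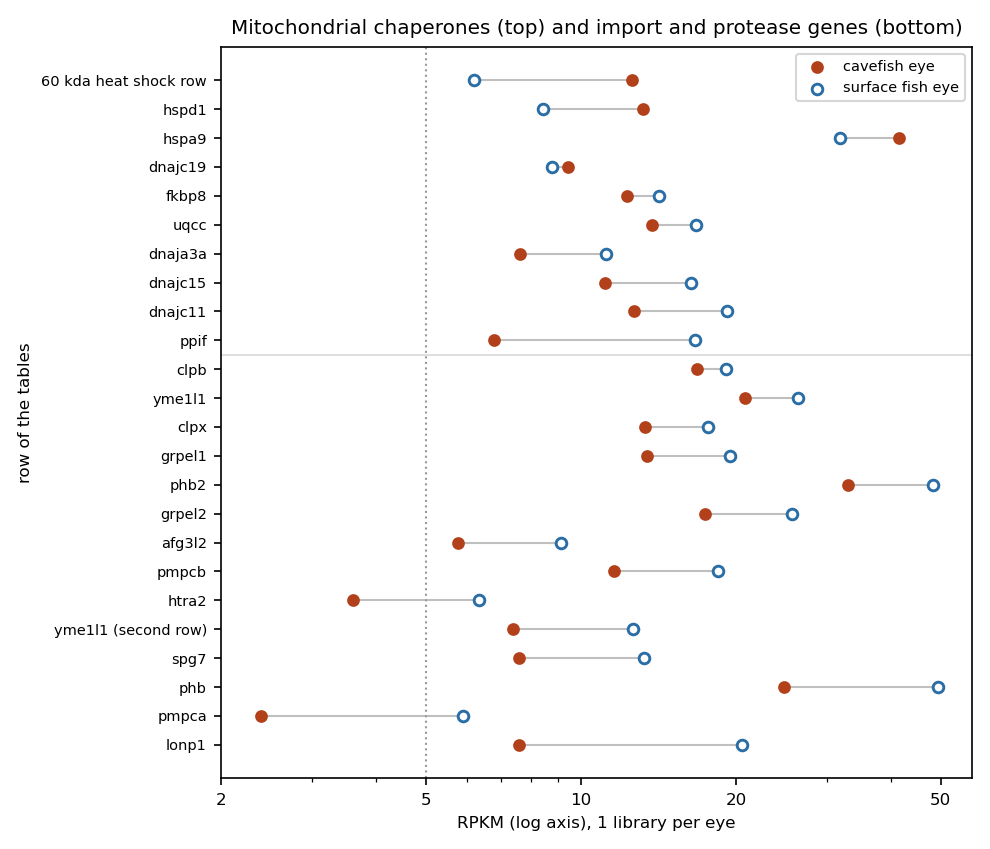
RPKM on a log axis of the 10 mitochondrial members (top block) and the 14 rows of the mitochondrial folding and protease list (bottom block), each sorted by log2 ratio; filled points are the cavefish eye, open points the surface fish eye, with 1 library each, and the dotted line marks 5 RPKM. The cavefish point lies to the right for the HSP60 and HSP70 rows and dnajc19, and to the left for all 14 rows of the list on the deposited scale (clpb turns under the other scalings).

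In level, the members were dominated by few rows. The 5 most abundant held 55.6% of the summed RPKM of all members in the cavefish eye and 52.7% in the surface fish eye, and 6 members reached 100 RPKM in either eye. All members summed to 4165 RPKM in the cavefish eye and 3639 RPKM in the surface fish eye, which is 0.626% of the cavefish table's total and 0.531% of the surface fish table's. Cytosolic rows made up 81.5% of the members' sum in the cavefish eye and 74.3% in the surface fish eye. Rows that were not assigned made up 6.31% in the cavefish eye and 14.9% in the surface fish eye, with dnajc13 as the most abundant of them in both eyes. Across the 100 members, log2 levels of the eyes correlated with a Pearson coefficient of 0.85 (Spearman 0.76), against 0.87 (0.81) over all rows; rows are not independent and share the 2 libraries. At the 2-fold threshold, hspa12b (-1.01), calreticulin, like 2 (1.03) and dnajc2 (-1.05) were just outside it, and hsbp1 (-0.93), dnajb5 (-0.93) and the 60 kda heat shock row (0.92) just inside.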

How the data were processed

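Eye RNA was sequenced as 1 library per species, and the brain libraries are not analysed here. The authors deposited RPKM values in a table per eye; per the submitters' processing notes, reads were aligned with Bowtie 0.12.2. The reference, and the counting of reads shared by related genes, are not stated in the sources used here. The tables list descriptive names, from which members, compartments (by textbook knowledge) and other lists were matched. Members and lists were chosen with earlier results of these data known.

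Ratios used a pseudocount of 1 RPKM and a threshold of 2-fold, over all 9649 rows (Python 3.11.15, numpy 2.4.6, pandas 2.3.3). There is no test, since each eye has 1 library. The calculation was tested on simulated data. Other scalings were median centring, a trimmed mean (30% per end), equal totals without the 50 most abundant rows of either library, and quantile normalization. Named with full values were members past 2-fold, the most abundant of each family and compartment, and all HSP90, HSP70, heat shock factor, calnexin and calreticulin rows; of other lists, rows past 2-fold and the 2 most abundant. One row that this rule would name is not reported here. Further list genes (ptges3, the BAG rows, smyd1a, stip1, eif2ak3, xbp1, ddit3, atf4b2, p4hb and grpel1) were picked after their values were seen.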

Additional observations from a re-analysis of the deposited data

How the results depend on the processing

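With a pseudocount of 5 RPKM, 173 of all rows were higher and 517 lower, and 3 members were higher and 4 lower. Among rows of 5 RPKM or more in both eyes, 179 rows and 3 members were higher, and 677 rows and 5 members lower. With a larger value of 10 RPKM or more, 256 rows were higher and 809 lower, and 7 members were higher and 6 lower. Of all rows, 647 were higher and 536 lower with median centring, 639 and 540 with trimmed mean scaling, 606 and 560 with equal totals without the 50 most abundant rows, and 598 and 559 with quantile normalization. Under each of these 4 scalings 17 members were higher and 4 lower. At 4-fold, 58 rows and 2 members were higher, and 124 rows and 0 members lower. Summing close relatives, an alternative chosen after seeing the data, left 6 members and 365 of all rows higher, and 7 members and 974 rows lower. As reported, the median less that of all 9649 rows was 0.38 for members, 0.39 for the cytosol and 0.74 for the ER. Over rows of 5 RPKM or more in both eyes, the median less that of those 7719 rows was 0.2789, 0.2894 and 0.5334. Less the median of all 9649 rows, these filtered medians were 0.31, 0.32 and 0.57. With a pseudocount of 5 RPKM the ER median less that of all rows was 0.5423. The cause of these shifts was not tested, beyond the fewer rows that the filters leave. No compartment median changed sign against all rows. The depth is unknown, and 31 members stayed under 10 RPKM in both eyes. No paired analysis was possible because each eye has 1 library.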

Other observations

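Immediate early genes, which tissue handling and stress can induce, were set beside the chaperones. Of 14 rows matched to 25 listed symbols, 1 was higher (7.14%, against 3.83% of all rows) and 2 were lower (14.3%, against 10.1%). Their median log2 ratio was -0.36, against -0.27 over all rows. The higher one, egr1, stood at 33.5 RPKM in the cavefish eye and 15.9 RPKM in the surface fish eye (1.03). The lower ones were klf2a, at 16.4 RPKM in the cavefish eye and 85.5 RPKM in the surface fish eye (-2.32), and gadd45ba, at 9.64 RPKM in the cavefish eye and 37.4 RPKM in the surface fish eye (-1.85). The part of handling in the chaperone values was not tested.

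Alpha B crystallin a, a small heat shock protein of the lens whose name holds none of the searched phrases, stood at 377 RPKM in the cavefish eye and 173 RPKM in the surface fish eye (1.12). A second such row, alpha-crystallin b chain, was within 2-fold (0.21). It stood at 78.4 RPKM in the cavefish eye and 67.65 RPKM in the surface fish eye. Calmegin, a relative of calnexin outside the name rule, was at 18.4 RPKM in the cavefish eye and 19.6 RPKM in the surface fish eye (-0.09), close to calnexin itself (-0.19). The proteasome assembly chaperones psmg1 and psmg2, also kept out by an exclusion word, were within 2-fold. Psmg1 was at 10.8 RPKM in the cavefish eye and 10.6 RPKM in the surface fish eye (0.02), and psmg2 at 15.3 RPKM in the cavefish eye and 19.3 RPKM in the surface fish eye (-0.32).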
